A study of Homo sapiens with 12 samples.

Results

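The sequences described here were 16 short RNA elements, written in DNA letters: the consensus Pumilio element and its forms with the last base changed. Each had T, G, T and A at positions 1 to 4 and A and T at positions 6 and 7, counted from the 5′ end, and any base at positions 5 and 8. The rule that picked them used sequence alone, and it was set with earlier results of these data known. Of these 16, 4 carried the consensus A at position 8 and 12 carried T, G or C there, each with all 4 bases at position 5. They were 16 of the 1006 entries listed in all 12 libraries, of which 1005 were elements of 8 bases and the other was named EMPTY. A total of 1022 entries appeared in at least 1 library.

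The study tested, in living cells, how strongly human PUM2 acts on many such elements, by fusing the protein to an RNA-editing domain and counting the edits left on a reporter mRNA. All libraries came from HEK293T, a line of human embryonic kidney cells with genotype WT per the labels. Groups of 3 biological replicates were hsPUM2-ADARcdMUT without induction, hsPUM2-ADARcdMUT at 25 ng, hsPUM2-ADARcdMUT at 250 ng, and a control with 1000 ng of ADARcdMUT and no PUM2. ADARcdMUT is a mutated catalytic domain of ADAR, so all 4 groups carried a form of that domain, and all carried the same kind of reporter library. Doxycycline, a drug that switches on transgenes, was the inducer named for the fusion. The titles give the amounts without saying what was weighed, or whether the 1000 ng counts the same substance. Protein levels are not stated either, so the ADARcdMUT group is a control of unknown expression. The extraction text in the labels speaks of zebrafish embryos, whereas the source, the cell line and the series design all name HEK293T.

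Pumilio proteins are repressors that bind elements of this type in the 3′ UTRs of mRNAs, recruit deadenylation factors and shorten the life of those mRNAs. Their Puf repeats each hold a base, and the protein lies antiparallel to the RNA, so that the base at the 3′ end of the element meets the N-terminal repeats. ADAR enzymes turn adenosine into inosine, which sequencing reads as G, so that a deaminase held near the recorder leaves A-to-G changes there. Each element is named in the text by its own bases, 5′ to 3′.

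The 3 changes at position 8 are written A8T, A8G and A8C, with the consensus base first. Editing is given as the percent of recorder adenosines edited, that is, edits over 7 adenosines per read. The libraries held 11235321 to 25127959 reads, and an element of the 16 had 4534 to 39140 reads in a library, with at least 435 edits. Across the 8-base elements the median editing was 1.82% ± 0.0991 (SD, n = 3) without induction, 4.35% ± 0.194 at 25 ng, 7.87% ± 0.0992 at 250 ng and 1.95% ± 0.120 with ADARcdMUT. EMPTY averaged 2.01%, 4.29%, 7.63% and 2.12% in the same groups. p-values measure the spread between the replicates of these groups, and limma draws that spread in part from all entries or pairs fitted.

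Without the induced fusion, editing of the 16 elements was low, and most lay below the library median. By group mean 4 of the 16 were above that median without induction and 6 with ADARcdMUT. Their means lay between 1.65% for TGTATATT and 1.89% for TGTACATG without induction, and between 1.60% for TGTATATA and 2.06% for TGTACATG with ADARcdMUT. By base at position 8, the 4 elements with A averaged 1.80% ± 0.0504 (SD, n = 3) without induction, those with T 1.70% ± 0.144, those with G 1.77% ± 0.163 and those with C 1.80% ± 0.181. With ADARcdMUT the corresponding means were 1.78% ± 0.0477, 1.91% ± 0.209, 1.96% ± 0.188 and 1.88% ± 0.0607. The 4 classes overlapped in both groups, except A and C with ADARcdMUT, where A was lower in all 3 libraries. Between ADARcdMUT and no induction, limma with Benjamini-Hochberg adjustment called 0 of the 16 elements, against 0.199% of the 1006 entries. At an unadjusted p under 0.05 it listed 2 of the 16 and 177 of all entries.

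With 250 ng of the fusion, 3 of the 4 consensus elements were the most strongly edited of the 16, and the fourth followed TGTATATT and TGTACATT. TGTATATA was edited at 13.9%, 13.5% and 14.2% in the 3 libraries at 250 ng, and at 2.003%, 1.63% and 1.79% without induction. TGTACATA was at 13.5%, 13.0% and 13.8%, against 1.74%, 2.02% and 1.87% without induction. TGTAAATA was at 12.9%, 13.3% and 13.6%, against 1.83%, 1.60% and 1.90%. These 3 elements overlapped each other at 250 ng and held the top ranks among the 1005 8-base elements. TGTAGATA, the consensus form with G at position 5, was at 11.7%, 11.3% and 11.4%, against 1.56%, 1.80% and 1.88% without induction. It lay below the other consensus elements in all 3 libraries and ranked 7 of 1005. The fold of the group means, 250 ng over no induction, was 7.68 for TGTATATA, 7.45 for TGTAAATA, 7.16 for TGTACATA and 6.58 for TGTAGATA, where the median 8-base element rose 4.34-fold.

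At 250 ng all 12 elements with a changed base at position 8 stayed above the library median on average, and each lay below its consensus partner. At 250 ng the elements with A at position 8 averaged 13.0% ± 0.227 (SD, n = 3). Those with T averaged 10.96% ± 0.218, those with G 10.1% ± 0.297 and those with C 9.48% ± 0.145. When each base was compared with each other base in the same library and with the same base at position 5, A exceeded T, G and C in 12 of 12 comparisons each. T likewise exceeded G and C in 12 of 12 each, and G exceeded C in 12 of 12. The 3 libraries of the higher base lay wholly above those of the lower for all 4 bases at position 5, except that G and C overlapped for 2 of the 4. The order of T, G and C among themselves was read from these values and not tested by a fit.

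The ends of the changed series were TGTATATT and TGTAGATC. TGTATATT was edited at 11.4%, 11.7% and 12.3% at 250 ng, at 1.32%, 1.88% and 1.77% without induction, and at 2.13%, 1.76% and 1.71% with ADARcdMUT. It ranked 4 of 1005 at 250 ng, and its 3 libraries overlapped those of TGTAGATA, a consensus element. TGTAGATC was edited at 7.94%, 8.002% and 8.04% at 250 ng, and at 1.61%, 1.73% and 1.74% without induction. Its mean lay 0.119 percentage points above the library median, and it ranked 365 of 1005.

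Because induction raised the whole library, a rise over no induction did not set these elements apart. All 16 elements were called higher at 250 ng than without induction by limma on the log2 odds of editing, and so was 100% of the 1006 entries. Relative to the library median, limma called 15 of the 16 higher, against 9.64% of the 1006 entries, and 0 lower. The median relative change of the 16 was 0.51 in log2 odds, against 0.01 over all entries. TGTATATA led with a relative change of 0.93 (SE 0.12, adjusted p = 8.18e-05 in limma). TGTATATT, at 0.80 (SE 0.09, limma adjusted p = 1.75e-05), stood higher than the consensus TGTAGATA at 0.67 (SE 0.06, limma adjusted p = 3.01e-06). The element that was not called was TGTAGATC, at 0.13 (SE 0.05, limma adjusted p = 0.113). Among the called elements the lowest changes were 0.29 for TGTAGATG and 0.34 for both TGTAAATC and TGTACATC. Of the 97 entries called higher, these 15 were part, and 34 entries were called lower.

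Each changed element was then set against the consensus element with the same base at position 5, within each library, which removes the level of that library. The fit held 228 such pairs, of which 12 were among these elements and 216 carried a further mismatch. At 250 ng limma called 11 of the 12 lower than their consensus partner and 0 higher, whereas 43.4% of all 228 pairs were called lower. The median difference over the 4 bases at position 5 was -0.28 in log2 odds for A8T, -0.42 for A8G and -0.50 for A8C. The differences with T at position 8 ran from -0.32 to -0.25, those with G from -0.44 to -0.40 and those with C from -0.58 to -0.49. The 3 sets of differences did not overlap. Pairs that share a consensus element share its error.

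The steepest fall was TGTAGATC against TGTAGATA. Its differences in the 3 libraries at 250 ng were -0.62, -0.56 and -0.56, and the fitted difference was -0.58 (95% interval -0.68 to -0.48, limma adjusted p = 2.41e-08). TGTATATC fell against TGTATATA by -0.51, -0.47 and -0.50 in the 3 libraries, with a fitted difference of -0.49 (-0.72 to -0.26, limma adjusted p = 0.00106). The pair that was not called was TGTATATT against TGTATATA, at -0.34, -0.23 and -0.24 (fitted -0.27, interval -0.54 to -0.01, limma adjusted p = 0.0837). All 3 libraries gave it the same sign. In the libraries without induction the same pair ran from -0.62 to 0.21, and the fit takes its spread from all 12 libraries. A fit of the 3 libraries at 250 ng alone called that pair lower (limma adjusted p = 4.83e-16), as it did 182 of all 228 pairs. With 3 libraries, limma draws the spread largely from all 228 pairs. That p therefore does not measure the spread of this pair alone.

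Without induction 0 of the 12 pairs were called by limma, against 1.32% of all pairs lower and 2.63% higher, and 1 of the 12 had an unadjusted p under 0.05. Their median difference per library was -0.12, 0.10 and -0.12, whereas at 250 ng it was -0.43, -0.44 and -0.40. The change of the difference from no induction to 250 ng was called lower for 10 of the 12 pairs, against 39% of all pairs, and higher for 0, against 0.877%. Those not called were TGTACATT against TGTACATA, with a change of -0.10 (interval -0.31 to 0.11, limma adjusted p = 0.423), and TGTATATT against TGTATATA, with -0.13 (-0.50 to 0.25, limma adjusted p = 0.581). Both are A8T changes, and both intervals are wide enough to hold the changes seen for the other A8T pairs, -0.25 and -0.30. Without replicate 2 of the non-induced fusion, the count fell from 10 to 6.

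At 25 ng the same order of bases appeared at a lower level. TGTACATA was edited at 7.25%, 8.39% and 7.01%, TGTATATA at 7.53%, 7.71% and 6.61%, and TGTAAATA at 7.22%, 7.997% and 6.69%. TGTAGATA again lay below them, at 6.09%, 6.30% and 5.92%. Elements with A at position 8 averaged 7.06% ± 0.522 (SD, n = 3), those with T 5.91% ± 0.177, those with G 5.41% ± 0.477 and those with C 5.03% ± 0.271. A exceeded each other base in 12 of 12 comparisons within a library, with no overlap for any of the 4 bases at position 5. T exceeded C in 12 of 12 and G in 11 of 12, and G exceeded C in 10 of 12, but the libraries of T and G overlapped for all 4 bases at position 5. TGTAGATC, at 4.25%, 4.48% and 4.19%, was close to the library median of 4.35% and ranked 548 of 1005.

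Relative to the library median, limma called 14 of the 16 higher at 25 ng than without induction, against 7.06% of the 1006 entries. The elements not called were TGTAAATC, at 0.26 (SE 0.09, limma adjusted p = 0.0668), and TGTAGATC, at 0.09 (SE 0.05, limma adjusted p = 0.310). TGTAAATC was called on an arcsine square root scale of the same data (limma adjusted p = 0.00575). It was also called among elements with at least 5000 reads in every library (limma adjusted p = 0.0482) and in a fit of only the groups compared (limma adjusted p = 0.0213). Of the 12 position 8 pairs, 11 were called lower at 25 ng, against 39% of all pairs. The fall from TGTAGATA to TGTAGATC was again among the largest, at -0.53 (interval -0.63 to -0.43, limma adjusted p = 1.23e-07), beside -0.55 (-0.72 to -0.39, limma adjusted p = 3.50e-05) from TGTACATA to TGTACATC. TGTATATT against TGTATATA was not called, at -0.25 (interval -0.51 to 0.02, limma adjusted p = 0.128), and was called in a fit of the 25 ng libraries alone (limma adjusted p = 0.00485). Against no induction the difference was called lower for 9 of the 12 pairs, with 28.5% of all pairs called. That count was 4 without replicate 2 of the non-induced fusion and 5 without replicate 1 of the 25 ng group. The comparisons of 25 ng and of 250 ng with no induction share the same 3 control libraries.

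Position 5 can hold any base in the consensus, yet elements with G there were edited less. At 250 ng the elements with T at position 5 averaged 11.6% ± 0.320 (SD, n = 3), those with C 11.3% ± 0.168, those with A 11.1% ± 0.290 and those with G 9.41% ± 0.0845. G lay below A, C and T in 12 of 12 comparisons within a library each, with no overlap for any base at position 8. At 25 ng the means were 6.13% ± 0.373 for T, 6.14% ± 0.4998 for C, 5.99% ± 0.357 for A and 5.15% ± 0.259 for G. G was the lowest in 12 of 12 comparisons there too. Without induction the 4 means lay between 1.71% and 1.83%, and with ADARcdMUT between 1.81% and 1.94%, where G had the highest mean and overlapped the others.

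Pairs that differ only at position 5 were fitted in the same way over 1266 pairs, of which 24 were among these elements. At 250 ng limma called 12 of the 24, which were the 12 pairs that involve G. The 4 differences of G minus A were called lower with a median of -0.27 in log2 odds, the 4 of G minus C were called lower with a median of -0.31, and the 4 of T minus G were called higher with a median of 0.34. Over all pairs 7.11% were called higher and 2.53% lower. The 12 pairs among A, C and T had differences from 0.00 to 0.10 and none was called, but their intervals reached 0.27, so that differences up to that size could not be told from none. In a fit of the 250 ng libraries alone 4 of these 12 were called, all with T higher than A or C, where 388 of all 1266 pairs were called higher and 138 lower. Without replicate 3 at 250 ng the pairs called lower went from 8 to 5. T exceeded A in 12 of 12 comparisons within a library at 250 ng and C in 11 of 12, with overlap between libraries in most cases. The clearest contrast was TGTATATC against TGTAGATC, at 0.40 (interval 0.27 to 0.52, limma adjusted p = 8.85e-05).

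At 25 ng limma called 3 of the 24 higher and 6 lower, against 5.69% and 2.29% of all pairs, and all 9 involve G. Leaving out any 1 of the 25 ng libraries lowered the first count to 1, and the second fell to 2 without replicate 1 and to 1 without replicate 2. Without induction 0 of the 24 were called by limma, against 3.95% of all pairs higher and 1.34% lower, and 2 of the 24 had an unadjusted p under 0.05. The change from no induction to 250 ng was called for 3 of the 24. TGTATATT minus TGTAGATT rose by 0.43 (limma adjusted p = 0.0157), TGTATATC minus TGTAGATC rose by 0.31 (0.0347), and TGTAGATT minus TGTACATT fell by 0.35 (0.0312). Over all pairs 3.32% were called higher and 1.82% lower in that comparison. The calls rest on single libraries, as they fell to 0 higher without replicate 1 of the non-induced fusion or without replicates 2 or 3 at 250 ng. They fell to 0 lower without replicates 1 or 3 of the non-induced fusion, without replicate 1 at 25 ng, or without any 1 of the 250 ng libraries. From no induction to 25 ng limma called 0 of the 24, against 1.74% of all pairs higher and 0.948% lower, and 7 of the 24 had an unadjusted p under 0.05.

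The effects of both positions came close to adding up on the log2 odds scale under the induced fusion. At 250 ng the base at position 8 held 66.7% ± 3.80 (SD, n = 3) of the variance over the 16 elements, the base at position 5 held 32.4% ± 3.97, and 0.879% ± 0.254 was left over. At 25 ng the shares were 73.0% ± 4.01, 24.3% ± 3.94 and 2.65% ± 1.36. Without induction 48.0% ± 8.71 of the variance was left over, and with ADARcdMUT 58.2% ± 12.4, on a much smaller total. The SD over the 16 elements was 0.25 in log2 odds at 250 ng, 0.24 at 25 ng, 0.11 without induction and 0.14 with ADARcdMUT. These shares describe 16 elements that were not tested against another model.

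Expressed as editing above the library median, the consensus elements stood 5.14 percentage points higher on average at 250 ng. Of that excess, 60.1% ± 2.80 (SD, n = 3) remained after A8T, 42.5% ± 3.13 after A8G and 31.2% ± 0.424 after A8C. At 25 ng the excess was 2.71 points, of which 58.3% ± 7.57, 38.9% ± 5.71 and 25.1% ± 3.30 remained. With G at position 5, A8C left 3.24% ± 1.28 of the excess at 250 ng and -2.14% ± 2.44 at 25 ng. The same change with A at position 5 left 36.3% ± 4.17 at 250 ng.

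From 25 ng to 250 ng all 16 elements rose, as did 100% of the 1006 entries in limma. Measured as editing gained over no induction, the gain at 250 ng was 2.04 times the gain at 25 ng for TGTACATA, 2.08 times for TGTAAATA and 2.21 times for TGTATATA. It was 2.41 times for TGTAGATC, 2.42 times for the median 8-base element and 2.47 times for EMPTY. Over the 16 elements it ranged from 2.04 to 2.41 with a median of 2.23, and it did not follow editing throughout, since TGTAGATG at 2.17 and TGTAGATT at 2.18 lay below TGTATATA. These ratios were not tested. Relative to the library median, limma on log2 odds called 0 of the 16 and 0 of the 1006 entries between the amounts, with 4 entries and 0 of the 16 at an unadjusted p under 0.05. On an arcsine square root scale of the same data, which weighs differences at high editing more, 11 of the 16 and 35 of all entries were called higher at 250 ng. The position 8 differences changed by -0.11 to 0.08 in log2 odds between the amounts, with 0 of 12 called by limma and 0 of 12 at an unadjusted p under 0.05, while on the arcsine scale 3 of the 12 and 7 of all 228 were called more negative at 250 ng. The order of the 16 elements was alike at both amounts, with Pearson's r of 0.986 and Spearman's rho of 0.985 over 16 elements that share 6 bases and were read in the same libraries.

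Against ADARcdMUT, limma called 14 of the 16 higher relative to the library median at 250 ng, where 10.3% of the entries were called, and 14 of the 16 at 25 ng, where 7.55% were. TGTAGATG and TGTAGATC were not called at either amount, with 0.13 and 0.10 at 250 ng (limma adjusted p = 0.175 and 0.203). TGTATATA reached 1.20 (SE 0.12, limma adjusted p = 9.05e-06) and TGTACATA 1.07 (SE 0.08, limma adjusted p = 4.20e-07) at 250 ng. These changes exceeded those over no induction, as TGTATATA was edited at 1.37%, 1.69% and 1.75% with ADARcdMUT and ranked 996 of 1005 there. TGTACATA was at 1.93%, 1.51% and 1.64% and ranked 966. Neither was called against no induction in the fit of relative editing, where the difference was -0.27 for TGTATATA (interval -0.53 to -0.01, limma adjusted p = 0.338) and -0.25 for TGTACATA (-0.41 to -0.09, limma adjusted p = 0.209). On that scale TGTACATA was at -0.09, -0.38 and -0.15 with ADARcdMUT and at 0.01, 0.07 and 0.05 without induction, with no overlap, while the libraries of TGTATATA overlapped. All 12 position 8 differences were more negative at 250 ng than with ADARcdMUT by limma, against 30.3% of all pairs, and 11 of 12 were at 25 ng, against 25.9%. None of the 12 was called less negative, against 0.877% of all pairs at both amounts. Of the 24 position 5 differences, 4 were called higher and 5 lower at 250 ng than with ADARcdMUT, against 4.42% and 2.53% of all pairs. At 25 ng 3 were called higher and 4 lower, against 2.92% and 3.08%. All these position 5 calls involve G, and most depended on single libraries: the 5 became 2 without any 1 of the 250 ng libraries and 8 without replicate 2 of the non-induced fusion, and the 3 and 4 fell to 0 and 1 without replicate 1 or 2 at 25 ng.

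With ADARcdMUT itself, 1 of the 12 position 8 pairs was called, against 2.63% of all pairs higher and 1.75% lower. TGTACATG exceeded TGTACATA by 0.24, 0.46 and 0.16 in its 3 libraries (fitted 0.29, interval 0.16 to 0.42, limma adjusted p = 0.0122), opposite in sign to the induced fusion. The call was absent from a fit of the ADARcdMUT libraries alone, which called 0, and 2 pairs were called without replicate 1 or 3 of ADARcdMUT. Of the 24 position 5 pairs, 1 was called with ADARcdMUT, against 7.11% of all pairs higher and 3.87% lower. It was TGTAGATA minus TGTACATA at 0.21 (interval 0.07 to 0.35, limma adjusted p = 0.0492), and it was not called under most other settings. Between ADARcdMUT and no induction limma called 0 of the 12 position 8 pairs and 0 of all 228, with 3 of the 12 and 41 of all at an unadjusted p under 0.05.

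The editing level joins the share of reads with an edit and the number of edits on such a read, and both followed the base at position 8. At 250 ng 28.9% ± 0.265 (SD, n = 3) of reads with A at position 8 carried an edit, 26.2% ± 0.428 with T, 25.05% ± 0.515 with G and 24.1% ± 0.245 with C. Without induction the shares were 6.71% ± 0.153, 6.50% ± 0.113, 6.76% ± 0.245 and 6.78% ± 0.276. Edited reads held 3.15 ± 0.0250 edits with A, 2.93 ± 0.00929 with T, 2.81 ± 0.0252 with G and 2.75 ± 0.0160 with C at 250 ng. Without induction these numbers were 1.88 ± 0.0618, 1.83 ± 0.126, 1.83 ± 0.107 and 1.85 ± 0.112. The 4 classes did not overlap at 250 ng in either measure, and neighbouring classes overlapped without induction in both.

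TGTATATA had 30.2%, 29.6% and 30.6% of its reads edited at 250 ng, with 3.23, 3.19 and 3.25 edits on an edited read. TGTAGATC had 21.7%, 21.6% and 22.0% of its reads edited, with 2.56, 2.60 and 2.56 edits. The 2 elements did not overlap in either measure. Relative to the library median, limma on log2 edits per edited read called 12 of the 16 higher at 250 ng than without induction, against 4.77% of the entries. TGTACATG, TGTAGATG, TGTATATC and TGTAGATC were not called. At 25 ng 7 of the 16 were called, against 2.68%, and these were the 4 consensus elements, TGTAAATT, TGTATATT and TGTATATG. Leaving out any 1 of the 250 ng libraries lowered the count at 250 ng to 7, and leaving out any 1 of the 25 ng libraries lowered that at 25 ng to 4. Against ADARcdMUT 11 of the 16 were called higher at 250 ng, where 6.16% of the entries were, and 5 at 25 ng, where 3.08% were. Without any 1 of the 250 ng libraries the 11 became 6 or 7, and without replicate 1 of ADARcdMUT the 5 became 8. Between the amounts limma called 0 of the 16 and 0 of all entries, with 1 entry and 0 of the 16 at an unadjusted p under 0.05. On the share of reads with an edit alone, 3 of the 12 called position 5 pairs at 250 ng lost their call. All 3 were pairs of TGTAGATA with another consensus element (limma adjusted p = 0.120 to 0.255). On that share the position 8 pair TGTACATT against TGTACATA lost its call at 250 ng (limma adjusted p = 0.0525) and at 25 ng (0.0929). At 250 ng against no induction, TGTAAATT against TGTAAATA (0.109) and TGTATATG against TGTATATA (0.0787) lost theirs. There TGTAAATC was also no longer called higher relative to the library median (0.0919).

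The number of reads per element, a second readout of the same libraries, followed the base at position 5 between ADARcdMUT and 250 ng. TGTATATA took 0.0671%, 0.0616% and 0.0792% of all reads at 250 ng and 0.0404%, 0.0462% and 0.0531% with ADARcdMUT. TGTAGATC took 0.153%, 0.156% and 0.144% at 250 ng and 0.168%, 0.158% and 0.163% with ADARcdMUT. TGTATATA was higher at 250 ng and TGTAGATC was lower, without overlap in either case. By edgeR's quasi-likelihood test with Benjamini-Hochberg adjustment, 6 of the 16 were called higher at 250 ng than with ADARcdMUT and 3 lower, while 31.7% of the 1006 entries were called higher and 34.8% lower. The share called lower among the 16 was below that of all entries, and the share called higher was near it. The 6 were the 4 elements with T at position 5 together with TGTACATA and TGTACATT. The 3 were TGTAGATT, TGTAGATG and TGTAGATC, of which 1 was left without replicate 3 at 250 ng or without replicate 1 of ADARcdMUT.

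The median change in reads of these elements, 250 ng against ADARcdMUT, was 0.44 in log2 with T at position 5, 0.13 with C, 0.01 with A and -0.12 with G. Over all 8-base elements the medians by base at position 5 were 0.18, -0.04, -0.02 and -0.14. By number of G and C bases in all 8-base elements, the median fell from 0.20 with 0 such bases to -0.28 with 4. Reads in this comparison therefore moved with base composition across the library. In the elements described here the medians ran in the order T, C, A and G, as mean editing at 250 ng did at position 5. Over all 8-base elements T was likewise highest and G lowest. From 0 to 4 G and C bases the median fell from 0.08 to -0.08 at 250 ng against no induction. It was -0.011 and -0.003 at 25 ng against no induction, and rose from -0.12 to 0.20 for ADARcdMUT against no induction. At 250 ng against no induction the medians of these elements were 0.24 with T at position 5, 0.09 with C, -0.02 with A and -0.11 with G. Over all 8-base elements they were 0.11, 0.02, -0.02 and -0.07. At 25 ng against no induction the medians of these elements were 0.014 with T at position 5, 0.024 with C, -0.003 with A and -0.054 with G. The part of reads in the position 5 result was not tested. By base at position 8 the median change of these elements, 250 ng against ADARcdMUT, was 0.20 with A, 0.13 with T, -0.01 with G and -0.01 with C. Over all 8-base elements it was 0.02, 0.01, -0.12 and -0.10. The changes ran in the order A, T, G and C, as editing did, for 3 of the 4 bases at position 5. The part of reads in the position 8 result was likewise not tested. At 250 ng against no induction the medians by base at position 8 were 0.07, 0.05, -0.00 and 0.01, and that order held for 1 of the 4 bases at position 5. Against no induction edgeR called 0 of the 16 and 0 of all entries at 250 ng, with 5 of the 16 and 430 of all entries at an unadjusted p under 0.05. DESeq2 called 2 of the 16 higher and 2 lower, with 164 and 147 of all entries. At 25 ng against no induction edgeR called 0, with 1 entry, which was among the 16, at an unadjusted p under 0.05.

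Elsewhere in the library, position 8 was read in elements with a further mismatch at positions 1, 2, 3, 4, 6 or 7. At 250 ng 88 of those 216 pairs were called lower by limma, with a median difference of -0.16, beside 11 of 12 and -0.42 in the elements described here. By place of the further mismatch, 30 of 36 pairs were called lower with the mismatch at position 4 and 28 of 36 at position 6. Only 5 of 36 were called lower at position 1, 10 of 36 at position 2, 4 of 36 at position 3 and 11 of 36 at position 7. The difference between these contexts was not tested. In each library at 250 ng and 25 ng, the median of the 12 pairs lay from -0.45 to -0.40, and that of the other pairs from -0.18 to -0.12.

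The 12 elements with a change at position 8 were also set beside the 12 elements with a change at position 7 alone. At 250 ng the position 8 changes ranged from 7.99% to 11.8%, and the median element was at 10.3% ± 0.234 (SD, n = 3). The position 7 changes ranged from 8.02% to 11.3%, with a median of 9.14% ± 0.191. At 25 ng the medians were 5.42% ± 0.367 and 5.001% ± 0.363. Without induction they were 1.75% ± 0.135 and 1.84% ± 0.0844. The ranges overlapped at both amounts, and the difference was not tested. Of the 16 elements, 7 were among the 16 most edited 8-base elements at each amount. At 250 ng 14 were among the top 100 and at 25 ng 15 were, whereas 0 were without induction or with ADARcdMUT.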

How the data were processed

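Amplicons of the recorder 3′ UTR were sequenced, per the labels' protocols. How reads were aligned, filtered and called as edited were steps not given in the sources used here. Per the file headers, the authors deposited counts per element of reads, edited reads and edits, and the library's total read count. They also deposited percent edited, each element's percent of reads, and an efficiency score, which was not used. The deposited percent edited equals edits over 7 times reads within 1e-09. No molecular identifiers are mentioned, so reads may be PCR copies, and read totals bound counting error only.

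From the counts, log2((edits + 0.5)/(7 × reads − edits + 0.5)) was computed per element and library. Limma 3.58.1 in R 4.3.3 (lmFit, eBayes with trend) was fitted to all 12 libraries by group, for 6 comparisons, as deposited and after centring each library on the median of the 8-base elements. Pairs differing at position 8 (228, whose A8 element had at most 1 other mismatch) or at position 5 (1266, among elements with at most 2 mismatches) were fitted as differences within a library. Log2 edits per edited read were fitted like the centred values, and read counts with edgeR 4.0.16 (TMM, quasi-likelihood). Calls used a Benjamini-Hochberg adjusted p under 0.05 over all entries or pairs. The fits were tested on simulated data. All 16 elements and their pairs are named, by rule, beside EMPTY and the library median. The elements, lists and tests were chosen with earlier results of these data known. Alternatives were a pseudocount of 5, a minimum of 5000 reads, the share of edited reads, the arcsine square root scale, another centring, fits of only the groups compared, other size factors, DESeq2 1.42.0, a replicate block, and leaving out every library once. Python 3.11.15 with numpy 2.4.6 and pandas 2.3.3 served for the rest.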

Additional observations from a re-analysis of the deposited data

Results flagged for a closer look

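Among the pairs, 2 differed in opposite directions with the induced fusion and with ADARcdMUT, and the change itself passed the test in limma at both amounts. The first was TGTACATG minus TGTACATA, a change of A8G. It was -0.40 at 250 ng and -0.48 at 25 ng but 0.29 with ADARcdMUT, which gives a change of -0.69 (SE 0.09, limma adjusted p = 3.42e-05) at 250 ng and of -0.77 (SE 0.09, limma adjusted p = 5.98e-06) at 25 ng. The second was TGTAGATA minus TGTACATA, 2 consensus elements that differ at position 5. It was -0.26 at 250 ng and -0.33 at 25 ng but 0.21 with ADARcdMUT (limma adjusted p = 0.0492), which gives a change of -0.47 (SE 0.10, limma adjusted p = 0.00340) and of -0.53 (SE 0.10, limma adjusted p = 0.00173). Both pairs share TGTACATA, and all 4 changes share the ADARcdMUT libraries. Neither call with ADARcdMUT itself held under every setting. The first was absent from a fit of the ADARcdMUT libraries alone, and the second was lost under several other settings.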

How the results depend on the processing

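Where direction was followed, no element or pair called in the main fit or the alternative changed direction. This covered relative editing of the induced fusion against no induction or ADARcdMUT. It also covered position 8 pairs at both amounts and at 250 ng against no induction, and position 5 pairs at both amounts. Direction was not followed in the other fits. Counts called higher in absolute and relative editing, induced fusion against no induction or ADARcdMUT, stayed within 1.5 times throughout. The arcsine scale called 11 of 16 higher in relative editing between the amounts (0 on log2 odds) and 3 position 8 pairs lower there (0). For position 5 it called 4 higher and 8 lower at 250 ng against no induction (2 and 1), 3 and 6 at 25 ng (0 and 0), 8 lower at 250 ng against ADARcdMUT (5) and 7 lower at 25 ng (4). With the share of edited reads, position 5 gave 1 higher and 3 lower at 25 ng (3 and 6), 1 and 0 at 250 ng against no induction, and 0 and 0 at 25 ng against ADARcdMUT (3 and 4). Fits of only the groups compared gave 0 position 8 pairs with ADARcdMUT (1), and for position 5 gave 8 higher at 250 ng (4), 2 lower at 250 ng against no induction (1) and against ADARcdMUT (5), and 1 and 1 at 25 ng against ADARcdMUT. The position 5 pair called with ADARcdMUT was lost (0) with a pseudocount of 5, the share of edited reads, the arcsine scale, only its own group, and the block. Among reads, DESeq2 called 2 and 2 at 250 ng against no induction and a fit of those groups 4 and 2 (0 and 0). The cause of these changes was not tested, apart from fits of fewer libraries, which by construction take their spread from fewer samples.

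In editing, same-numbered deviations from the group means correlated from -0.09 to 0.07 (0 of 18 above 0.1), after each library was centred on its median. Centring removes a shift shared by a whole library, so these values cannot show whether replicate numbers pair the samples. In reads these correlations ran from -0.75 to 0.77 (12 of 18 above 0.1), and whether the numbers pair the samples there was not tested. With the block, edgeR called 138 of all entries higher and 130 lower in reads at 250 ng against no induction (0 and 0). The replicate block left 2 position 5 pairs lower at 25 ng against ADARcdMUT (4), 0 with ADARcdMUT, and 2 and 2 in reads at 250 ng against no induction. With it TGTAAATT minus TGTAAATA and TGTATATG minus TGTATATA were no longer called at 250 ng against no induction (limma adjusted p = 0.0527 and 0.0538).

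With 1 library left out, where a lone pair then shares the spread of the other groups, position 8 counts ranged from 6 to 10 lower at 250 ng against no induction, 4 to 10 lower at 25 ng, 1 to 2 higher with ADARcdMUT and 0 to 2 higher with ADARcdMUT against no induction. Position 5 counts ranged from 3 to 4 higher and 5 to 8 lower at 250 ng (5 without replicate 3), 1 to 4 higher and 1 to 8 lower at 25 ng (2 without replicate 1, 1 without replicate 2), 0 to 1 lower without induction, and 0 to 1 higher and 0 to 2 lower with ADARcdMUT. They ranged from 0 to 2 both ways at 250 ng against no induction, 0 to 1 lower at 25 ng, 2 to 5 higher and 2 to 8 lower at 250 ng against ADARcdMUT, and 0 to 4 higher and 1 to 4 lower at 25 ng. Edits per edited read ranged from 7 to 14 at 250 ng and 4 to 9 at 25 ng against no induction, and from 6 to 13 and 4 to 8 (8 without ADARcdMUT replicate 1) against ADARcdMUT. Absolute editing of ADARcdMUT against no induction gave 0 to 2 higher (2 without ADARcdMUT replicate 3). Reads gave 0 to 3 higher and 0 to 2 lower at 250 ng against no induction, 0 to 4 higher against 25 ng, 1 to 3 lower against ADARcdMUT, 0 to 6 higher for 25 ng against ADARcdMUT (6 without 25 ng replicate 2) and 0 to 2 lower for ADARcdMUT against no induction. Of all 1006 entries, 97 were called higher and 34 lower in relative editing at 250 ng against no induction, 153 and 63 on the arcsine scale, and 67 lower in a fit of those groups. Editing near 2% left fewer edits on these elements. The lowest count in a library was 654 to 994 without induction and 435 to 836 with ADARcdMUT. It was 2925 to 7682 at 25 ng and 9366 to 14630 at 250 ng. By base at position 8, the SD of relative log2 odds was 0.056 to 0.102 without induction and 0.053 to 0.070 with ADARcdMUT. At 25 ng that SD overlapped these, at 0.025 to 0.067, and at 250 ng it was 0.011 to 0.034. Whether the number of edits sets this spread was not tested.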
